A study of Elaeis guineensis with 12 samples.

Results

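Mantled staminodia of oil palm, the organs that start to grow as pseudocarpels, were compared with the true carpel of unaffected flowers, to ask how carpel-like the pseudocarpel initials were. The comparison takes 6 of the 12 libraries of the series, chosen by their labels: 3 labelled mantled and staminodia and 3 labelled normal and carpel. All came from clonal palms of Elaeis guineensis, from florets at stage 3 of floral development, and each organ was isolated from tissue sections with a laser before its RNA was sequenced. The mantled staminodia came from 3 palms. The normal carpel came from 2 palms, since replicates 1 and 2 share an inflorescence of normal palm 1 and replicate 3 is normal palm 2, so replicates 1 and 2 were summed and the palm was the unit of replication. The 6 remaining libraries, mantled carpel of the same 3 mantled palms and normal staminodia of the same 2 normal palms, are used only as a scale. No palm stands on both sides of the comparison, so organ, phenotype and palm cannot be told apart in it, and the ID of mantled palm 1 has another prefix than those of the other 4 palms.

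In a normal female floret the staminodia are arrested male organs around the carpel, the ovule-bearing organ. Which organ a primordium becomes is set in flowering plants by combinations of homeotic transcription factors, and a change in one of them can turn the organs of one whorl into those of another. Mantling, a variant that arises in palms raised by tissue culture, is such a homeotic change, in which the staminodia grow into extra carpels around the true one. Stage 3 florets hold the pseudocarpels as initials, before the fleshy carpel-like form is reached.

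Over the 6 libraries compared, the counts assigned to features came to 2349579 at the least, in replicate 3 of normal carpel, and to 4426220 at the most, in replicate 2 of normal carpel. Over all 12 libraries they ran from 2121145 to 8066978. Read counts of features that carry a part number were summed to their gene model, which left 26087 gene models. Levels are CPM, counts scaled to a common library total with TMM factors, and log2 fold changes are mantled staminodia over normal carpel. None of the feature IDs (0 of 100342) matched a name in the reference gene table, so floral regulators and organ markers could not be looked up, the organ labels could not be checked against markers, and no function is given to any model. Up to 2 IDs are printed in each direction, and further models go by the scaffold in their ID. In laser-captured tissue, fewer cells of a type and less RNA per cell cannot be told apart.

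Few gene models were called between mantled staminodia and normal carpel, and all of those that the main edgeR test called were lower in mantled staminodia. The quasi-likelihood test of edgeR called 7 of 15059 models at an adjusted p of 0.05, which is 0.0465% of them, and called 0 higher. At an unadjusted p under 0.05 there were 317 models with higher and 328 with lower values in mantled staminodia, 645 in all where 753 would be reached without any difference. DESeq2 called 45 models, 14 higher and 31 lower, and limma voom called 59, 14 higher and 45 lower. With 3 palms against 2, few calls do not show that few models differed. All 7 models called by edgeR were among those of DESeq2, and 6 of the 7 among those of limma voom. Over the 2300 models with a mean of 100 CPM or more, 96% had a fitted difference of less than 2-fold (up or down) between mantled staminodia and normal carpel.

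**Figure D1:**
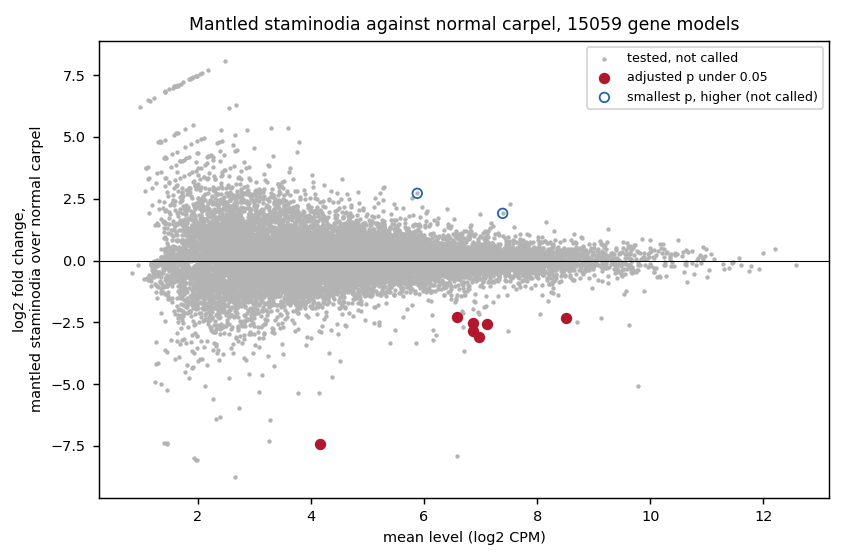
Fitted log2 fold change, mantled staminodia over normal carpel (vertical axis), against mean log2 CPM (horizontal axis) for the 15059 gene models tested, 1 point per model. The 7 filled points, all below 0, passed an adjusted p of 0.05, and the 2 open circles have the lowest p of the models above 0 and did not pass.

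The number of calls moved with the palms kept. Without mantled replicate 1 edgeR called 0 models (460 at an unadjusted p under 0.05), and without mantled replicate 2 it called 0 (546). Without mantled replicate 3 it called 7, of which 5 were among the original 7. For p5_sc00001_cds_1164 the log2 fold change was -2.63 without mantled replicate 1 and -2.38 without mantled replicate 2, against -2.58 with all palms, so that its call was lost with little change in its size. Without normal replicate 3, which leaves 1 normal palm assumed to vary like the mantled palms, it called 21, all lower in mantled staminodia. With normal palm 2 alone, that is, with both normal replicates 1 and 2 left out, it called 13, of which 9 were higher and 4 lower. The balance of directions thus turned with the normal palm kept. With no filter and all palms it called 22 higher and 56 lower.

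Model p5_sc00343_cds_30, a single feature on scaffold p5_sc00343, had the smallest p of all. It stood at 27.6, 30.6 and 33.1 CPM in the staminodia of mantled palms 1, 2 and 3, against 363 and 167 CPM in the carpel of normal palms 1 and 2. The mantled staminodia lay close together and below both normal carpels, while the normal carpels were themselves far apart. Its means were 30.4 CPM ± 2.79 (SD, n = 3 palms) in mantled staminodia and 265 ± 139 (SD, n = 2 palms) in normal carpel. The fitted log2 fold change was -3.11 (SE 0.376, adjusted p = 0.00713 in edgeR). In the organs that the test did not use it stood at 80.9, 63.9 and 238 CPM in mantled carpel and at 161 and 24.0 CPM in normal staminodia. Each staminodia sample was below the carpel of its own palm, in 3 of 3 mantled and 2 of 2 normal palms. The call was lost without mantled replicate 1 (-3.04, adjusted p = 0.439 in edgeR), without mantled replicate 2 (-3.12, adjusted p = 0.0705), with normal palm 2 alone (-2.44, adjusted p = 0.0532) and with all 4 groups in 1 fit (-3.11, adjusted p = 0.702).

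The next 3 models by p were neighbours in number on scaffold p5_sc00001, between model numbers 1164 and 1167, and had nearly the same profile. Model p5_sc00001_cds_1164, the first of them, stood at 49.4, 31.0 and 57.1 CPM in mantled staminodia, against 294 and 261 CPM in normal carpel. The second model stood at 33.7, 19.4 and 46.8 CPM in mantled staminodia, against 247 and 238 CPM in normal carpel. The third stood at 49.7, 27.9 and 41.8 CPM in mantled staminodia, against 251 and 213 CPM in normal carpel. In all 3 models the groups stood well apart, the normal carpels were close to each other, and the staminodia of mantled palm 2 were the lowest.

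The log2 fold changes of these 3 models were -2.58 (SE 0.342), -2.85 (SE 0.382) and -2.53 (SE 0.35), with adjusted p-values of 0.00873, 0.00873 and 0.00966 in edgeR. Normal staminodia stood between the groups in each of them, at 123 and 83.4 CPM in the first model, 114 and 74.7 CPM in the second and 114 and 57.0 CPM in the third. Every normal staminodia value was thus above every mantled staminodia value and below every normal carpel value. The mantled carpel differed by palm: the first model stood at 48.2, 118 and 338 CPM in the carpel of mantled palms 1, 2 and 3, the second at 57.2, 92.8 and 238 CPM, and the third at 48.0, 92.0 and 228 CPM. The carpel of mantled palm 3 was thus at the normal carpel level in all 3 models, and that of mantled palm 1 near the level of mantled staminodia.

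The reads of the 3 neighbouring models were spread over their parts. Of the 16 parts listed for them, 15 had reads, and in all 15 the mean was lower in mantled staminodia than in normal carpel. These parts belong to models called lower, so their direction is a description. Of the 8 tested models with numbers within 10 of the run, the 5 others had log2 fold changes from -0.48 to 0.88, with a smallest unadjusted p of 0.127 in edgeR. The files give no positions within the scaffold, and whether the 3 models are separate genes or pieces of 1 was not tested. The calls of all 3 were lost without mantled replicate 1 (-2.63, -2.85 and -2.71, adjusted p = 0.439 in edgeR for each), without mantled replicate 2 (-2.38, -2.58 and -2.34) and with all 4 groups in 1 fit (-2.58, -2.84 and -2.52). That of the third was also lost with normal palm 2 alone (-2.40).

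Another called model on scaffold p5_sc00001 was low in both organs of the mantled palms. It stood at 99.4, 107 and 212 CPM in mantled staminodia, against 777 and 630 CPM in normal carpel. Mantled carpel stood at 100, 140 and 229 CPM, as low as mantled staminodia, and normal staminodia at 1090 and 819 CPM, above normal carpel in both palms. The log2 fold change was -2.32 (SE 0.339, adjusted p = 0.0147 in edgeR), from means of 140 CPM ± 63.0 (SD, n = 3) in mantled staminodia and 704 ± 104 (SD, n = 2) in normal carpel. The model on scaffold p5_sc00040 stood at 46.3, 38.4 and 27.5 CPM in mantled staminodia, against 188 and 176 CPM in normal carpel, with a log2 fold change of -2.28 (SE 0.361, adjusted p = 0.0317). It stood at 54.5, 67.8 and 89.1 CPM in mantled carpel and at 153 and 156 CPM in normal staminodia, so that both normal organs were above both mantled organs in every palm.

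Both calls were lost without mantled replicate 1 (-2.12 for the p5_sc00001 model and -2.45 for the p5_sc00040 model), without mantled replicate 2 (-2.17 and -2.30), with normal palm 2 alone (-2.16 and -2.22) and with a minimum mean of 10 CPM (-2.33 and -2.29). That of the p5_sc00040 model was also lost without mantled replicate 3 (-2.09) and without normal replicate 1 (-2.13). With all 4 groups in 1 fit they were the 2 models of the 7 that stayed called, with adjusted p-values of 0.0284 and 0.0168 in edgeR.

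The seventh model, on scaffold p5_sc01259, was near absent from mantled staminodia. It had 0, 2 and 0 reads in mantled staminodia replicates 1, 2 and 3, against 64, 56 and 167 reads in normal carpel replicates 1, 2 and 3. The ratio of normal carpel over mantled staminodia, by summed reads per assigned read, was 139 with an exact 95% Poisson interval of 38.1 to 1150, which covers counting error only. The normal carpels were unequal, at 16.5 CPM in normal palm 1 and 70.3 CPM in normal palm 2. Mantled carpel stood at 0, 6.55 and 6.75 CPM and normal staminodia at 14.7 and 0 CPM. Its adjusted p was 0.0483 in edgeR, and the call was lost in 8 of 15 alternatives, among them without each of the mantled replicates in turn and without normal replicate 1 or 3.

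**Figure D2:**
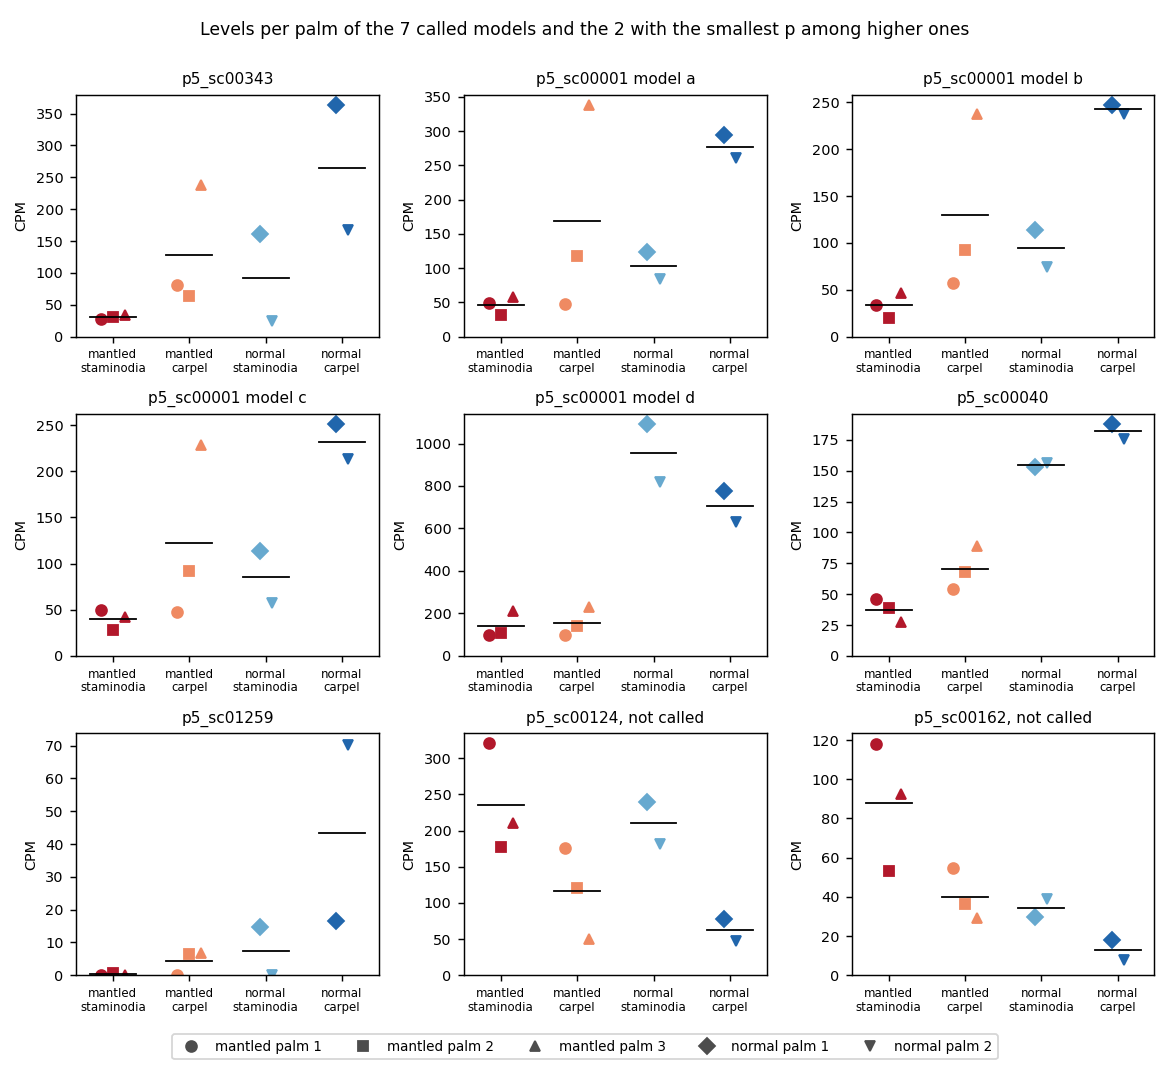
CPM (vertical axis, from 0, own scale per panel) per palm in mantled staminodia, mantled carpel, normal staminodia and normal carpel for the 7 called models and the 2 with the smallest p among models with higher values. Marker shapes are palms and bars are group means. Models a, b and c on p5_sc00001 share 1 profile with normal staminodia between mantled staminodia and normal carpel, while model d and the p5_sc00040 model are low in both mantled organs.

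The main edgeR test called no model higher in mantled staminodia, and the 2 with the smallest p in that direction had an adjusted p of 0.155. Model maker-p5_sc00124-snap-gene-6.19-mRNA-1:cds stood at 321, 177 and 210 CPM in mantled staminodia, against 78.4 and 47.6 CPM in normal carpel. Its log2 fold change was 1.91 (SE 0.372). The groups did not overlap, and normal staminodia, at 239 and 181 CPM, lay within the range of mantled staminodia. Mantled carpel stood at 176, 121 and 50.4 CPM. Model maker-p5_sc00162-snap-gene-14.56-mRNA-1:cds stood at 118, 53.1 and 92.5 CPM in mantled staminodia, against 18.2 and 8.0 CPM in normal carpel. Its log2 fold change was 2.72 (SE 0.536). Here normal staminodia, at 29.6 and 38.8 CPM, stood between the groups, and so did mantled carpel of palms 2 and 3, at 36.4 and 29.2 CPM, with that of palm 1 at 54.7 CPM. DESeq2 called both (1.92 and 2.74), as did limma voom (1.79 and 2.51) and edgeR with no filter (1.90 and 2.72). The first was also called with each library as a replicate (1.8).

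Large differences were more common than calls, and most of those not called came with palms of 1 group far apart. Among models with a mean log2 CPM of 5 or more, 46 had a fitted difference of 4-fold or more, 16 higher and 30 lower in mantled staminodia, and 6 of these were called. Of the 40 not called, 27 had palms of 1 group that were themselves 4-fold or more apart. In 35 of the 40 the palm values of the groups still did not overlap. All were picked by the size of their difference, which favours groups that do not overlap. The p5_sc01259 model lies below this limit on the mean and is not among the 46. Over all tested models, palm values of mantled staminodia were below both normal carpels without overlap in 1550 models (10.3%) and above both in 1514 (10.1%). The median log2 fold change over all tested models was 0.0627.

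The 50 models of smallest p, 36 lower and 14 higher in mantled staminodia, were followed into the organs that the test did not use. Mantled carpel lay nearer to mantled staminodia than to normal carpel in 32 of the 50 (64%), against 58.4% of all tested models. Normal staminodia lay nearer to mantled staminodia in 17 of the 50 (34%), against 49.9% of all tested models. In most of these 50 models, then, normal staminodia were nearer to normal carpel than to mantled staminodia. This came from the 36 lower models, where 27.8% had normal staminodia nearer to mantled staminodia, against 50% of the 14 higher ones. Among the 7 called models it went the other way, with normal staminodia nearer to mantled staminodia in 4 (57.1%). The list was picked on mantled staminodia and normal carpel, and mantled carpel and normal staminodia come from the same palms as these, so the shares are a description. Over the 50 models of smallest p, the share for mantled carpel was 42% without mantled replicate 1 and 90.0% without mantled replicate 3. That for normal staminodia was 18% without mantled replicate 3. With normal palm 1 alone the shares were 81% and 0% over 21 called models, and with normal palm 2 alone both were 84.6% over 13 called models.

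The same models and spread were then used for 4 comparisons, with all 10 palm by organ sums in 1 fit and 16800 models tested. Mantled staminodia against normal carpel gave 2 calls (0.0119%), both lower, and mantled staminodia against normal staminodia gave 4 calls (0.0238%), all lower. Normal staminodia against normal carpel gave 1 call (0.00595%), higher in staminodia. These organs came from the same 2 palms, and the fit left that pairing out. When the organs were compared within normal palms, 25 models were called. The 1 call is thus no measure of how far the normal organs differed. Mantled carpel against normal carpel gave 0 calls (0%), with 455 models at an unadjusted p under 0.05, against 840 that a fit with no difference would give. The comparisons share samples, and those of mantled staminodia with normal carpel and with normal staminodia had like numbers at an unadjusted p under 0.05, 978 and 879. For the p5_sc00001 model low in both mantled organs, the log2 fold change was -2.76 for mantled over normal staminodia (adjusted p = 0.00313 in edgeR), -2.15 for mantled over normal carpel (adjusted p = 0.139) and 0.45 for normal staminodia over normal carpel. For the p5_sc00040 model these values were -2.04 (adjusted p = 0.0235 in edgeR), -1.35 and -0.23. For p5_sc00001_cds_1164 they were -1.17, -0.71 and -1.41, none of them called, and its 2 neighbours had like values (-1.50, -0.89 and -1.34, then -1.10, -0.91 and -1.42). Of the 2279 models with a mean of 100 CPM or more, 96.1% were within 2-fold between mantled staminodia and normal carpel, 96.2% between mantled staminodia and normal staminodia, 98.3% between mantled carpel and normal carpel and 98.9% between normal staminodia and normal carpel. Only the last share compares organs of the same palms, while the others set different palms against each other, so the shares are not on an equal footing.

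Whole profiles were compared by the root mean square difference in log2 CPM over the 10503 models with a mean of 10 CPM or more. By the mean over both normal palms, mantled staminodia stood no nearer to normal carpel than to normal staminodia. From the staminodia of mantled palms 1, 2 and 3, the distance was 0.966, 1.05 and 0.916 to the carpel of normal palm 1, against 0.966, 1.04 and 0.934 to the staminodia of the same palm. To normal palm 2 it was 1.45, 1.47 and 1.46 for carpel, against 1.30, 1.29 and 1.35 for staminodia. The organ made next to no difference for normal palm 1, and carpel was the farther one in all 3 mantled palms for normal palm 2.

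Averaged over both normal palms, the distance to carpel exceeded that to staminodia by 0.0718 ± 0.0245 (SD, n = 3 mantled palms). Without normal replicate 3 the difference was -0.003, with normal palm 2 alone it was 0.135, and with all sums thinned to the smallest total it was 0.057. The carpel library of normal palm 2 was 1.28 or more from every other profile, and the staminodia library of that palm 1.11 or more. The distance between these organs was 1.48, against 0.467 between the organs of normal palm 1. The carpel library of normal palm 2 had the lowest total of the 6 compared and, with 14712, the fewest models with a read of all 12 libraries. The staminodia library of that palm had 2153546 counts and 15458 models with a read. The part of depth in the distances was not tested beyond the thinning.

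Mantled staminodia were nearest to the carpel of their own palm in palms 1 and 2. These distances were 0.725 and 0.656, below the 1.04 to 1.20 between staminodia of different mantled palms, and the Spearman rho over models was 0.907 and 0.941. In mantled palm 3 the organs were farther apart, at 1.03 with a rho of 0.847, and its staminodia were nearer to the normal carpel and normal staminodia of normal palm 1. Models are not replicates, and both organs of a palm share its inflorescence, so these are descriptions of single pairs. Of the 100 models with the highest CPM, mantled staminodia shared 67 to 76 with each normal carpel and 69 to 77 with each normal staminodia, and 82 to 90 with the carpel of their own palm.

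**Figure D3:**
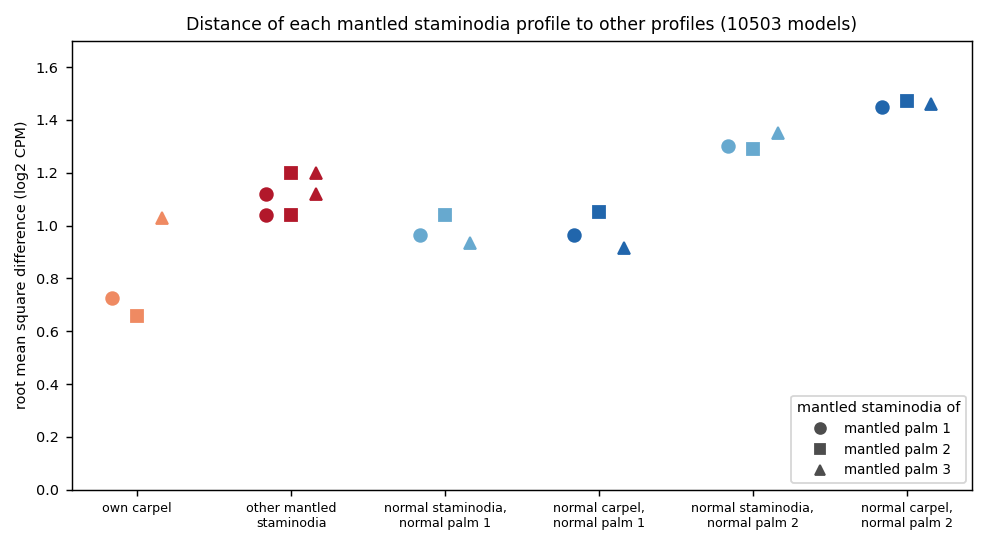
Root mean square difference in log2 CPM (vertical axis) between the staminodia profile of each mantled palm (marker shape) and the profiles named on the horizontal axis, over 10503 models. Carpel and staminodia of normal palm 1 are at like distances (0.916 to 1.05 and 0.934 to 1.04), and in normal palm 2 the carpel is farther (1.45 to 1.47) than the staminodia (1.29 to 1.35).

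Models that set the organs of unaffected flowers apart gave a scale on which to place the pseudocarpel initials. Such models were chosen on the normal palms alone, as those with a mean of 10 CPM or more that differed 2-fold or more the same way between staminodia and carpel in both normal palms. Of 10335 models considered, 146 met this, 89 higher in staminodia and 57 higher in carpel, while 77 differed 2-fold or more in opposite ways in the 2 palms. Over the models considered, the organ differences of the 2 normal palms were correlated with r = 0.104 (Pearson) and rho = 0.11 (Spearman), and 424 models passed 2-fold in normal palm 1 against 3329 in normal palm 2. The smaller of the 2 palm differences was 1 just inside the limit and 0.9992 just outside it (log2).

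On this scale a level equal to normal staminodia has position 0 and one equal to normal carpel position 1. Models picked through chance differences of the normal samples pull the position of any other sample toward 0.5. A position near 0.5 thus does not by itself show a state between the organs. For this reason mantled carpel, which the choice of models did not use either, is set beside mantled staminodia. The median position of mantled staminodia was 0.42, 0.36 and 0.42 in mantled palms 1, 2 and 3, and that of mantled carpel 0.59, 0.63 and 0.99 in the same palms. Mantled staminodia were thus below the carpel of their own palm in 3 of 3 palms, and on this list they varied little among palms. Means were 0.400 ± 0.037 for mantled staminodia and 0.737 ± 0.22 for mantled carpel (SD, n = 3 palms each). On this list the carpel of mantled palm 3 stood at the normal carpel level, and those of palms 1 and 2 between the middle and that level. The highest mantled carpel position moved with the setting. It was 1.11 with a minimum mean of 30 CPM, 0.80 with all sums thinned to the smallest total and 0.69 without normal replicate 2. In the last 2 settings the mean of mantled carpel was 0.626 and 0.592, against 0.431 and 0.39 for mantled staminodia.

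Models higher in staminodia and models higher in carpel gave like positions. Over the 89 staminodia-high models the mean position was 0.370 ± 0.072 in mantled staminodia and 0.707 ± 0.30 in mantled carpel (SD, n = 3 palms each). Over the 57 carpel-high models it was 0.432 ± 0.018 in mantled staminodia and 0.765 ± 0.20 in mantled carpel. By the mean level of the 3 mantled palms, mantled staminodia lay nearer to normal carpel in 73 of 146 and nearer to normal staminodia in the other 73. Models picked through chance would also split evenly. By class, mantled staminodia lay nearer to normal carpel in 49 of the 89 staminodia-high and 24 of the 57 carpel-high models. Mantled carpel lay nearer to normal carpel in 106 of 146.

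The position of mantled staminodia moved with the list. It was 0.232 over the 48 models with a mean of 30 CPM or more, 0.295 over the 25 models called for the organ within normal palms, and 0.585 over the 8 models that differed 4-fold or more. Among mantled palms the position ran from 0.12 to 0.29, 0.13 to 0.59 and 0.38 to 0.70 on these lists. On the list of 146 models it ran from 0.36 to 0.42. Without normal replicate 3 it was 0.542 over 402 models, and without normal replicate 1 it was 0.543 over 371. Over the 522 models with a mean of 3 CPM or more it was 0.437, against 0.554 for mantled carpel, and with normal palm 2 alone, over 3194 models, it was 0.436, against 0.476 for mantled carpel, so that the mantled organs stood closer together on both of these lists. Mantled staminodia stayed below the carpel of their own palm in every mantled palm in each of these lists except the 4-fold one, where this held in 2 of 3 palms.

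**Figure D4:**
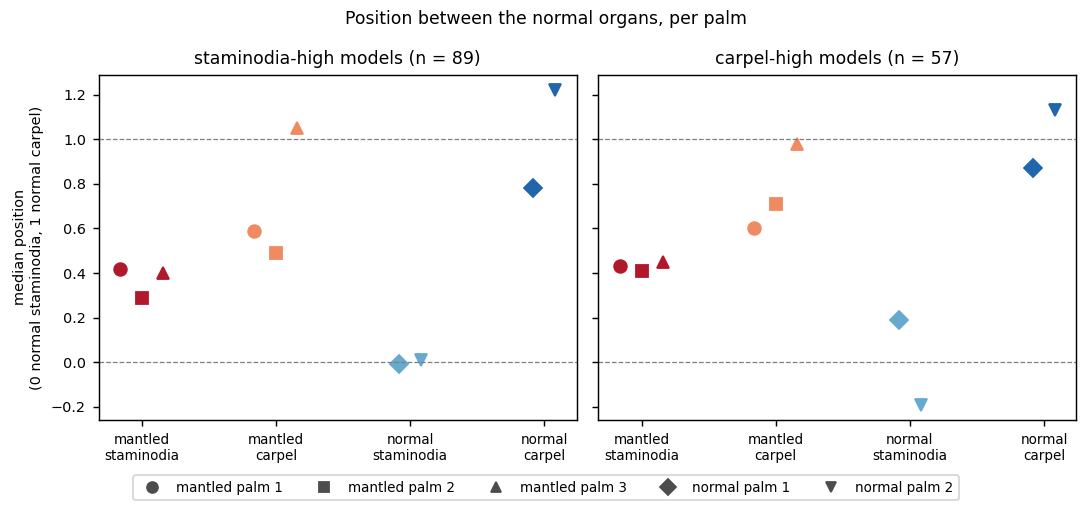
Median position per palm (vertical axis, 0 for the mean of normal staminodia and 1 for that of normal carpel, dashed lines) over the 89 staminodia-high and the 57 carpel-high models. Colours are groups and marker shapes are palms. The normal samples chose the models and stand near 0 and 1 by construction, mantled staminodia stand between 0.29 and 0.45, and mantled carpel between 0.49 and 1.05.

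Of the 146 models, 144 were tested between mantled staminodia and normal carpel, and 4 of these were called, all of them carpel-high and lower in mantled staminodia, where 0.0465% of all tested models were called lower. The list was chosen on the normal carpel samples that the test also used, so nothing is read from this count. They are p5_sc00343_cds_30 and the 3 neighbouring models on p5_sc00001. The 87 staminodia-high models tested had a median log2 fold change of 0.97 and the 57 carpel-high models one of -1.08, against 0.0627 for all tested models. This median shares normal carpel with the choice of the list, so its sign is fixed in part by that choice. Between the organs of mantled flowers, which the choice did not use, the median log2 difference of staminodia over carpel was 0.50 in the staminodia-high and -0.61 in the carpel-high models, against 1.76 and -1.75 in the normal flowers that picked them. The difference went the normal way in 95, 112 and 112 of the 146 models in mantled palms 1, 2 and 3, and in 63 models in all 3.

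The 2 staminodia-high models that were farthest apart in both normal palms were below both normal staminodia in every mantled palm. They were picked for their high normal staminodia, so lower values in other samples follow in part from that choice. Model p5_sc00051_cds_156 stood at 9.19, 12 and 4.70 CPM in mantled staminodia, against 16 and 3.79 CPM in normal carpel, while normal staminodia were at 124 and 52.2 CPM. Mantled carpel stood at 5.41, 5.94 and 13.5 CPM, so that normal staminodia were the one organ with a high level. Model p5_sc00011_cds_478 stood at 1.02, 20.2 and 9.65 CPM in mantled staminodia, against 7.03 and 8.84 CPM in normal carpel, with 44.3 and 51.7 CPM in normal staminodia. Its mantled staminodia were spread on both sides of normal carpel. Their log2 fold changes were -0.20 (SE 1.15) and 0.39 (SE 1.25), each with an adjusted p of 1 in edgeR, and these errors leave room for a difference of several-fold either way.

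The 2 carpel-high models that were farthest apart in both normal palms had few reads, and were likewise picked on the normal samples. Model p5_sc00131_cds_181 stood at 6.81, 3.49 and 6.18 CPM in mantled staminodia, against 7.85 and 29.1 CPM in normal carpel and 1.43 and 2.40 CPM in normal staminodia. Model maker-p5_sc00084-augustus-gene-22.68-mRNA-1:cds stood at 3.40, 0.388 and 19.0 CPM in mantled staminodia, against 20.9 and 15.2 CPM in normal carpel and 4.57 and 2.40 CPM in normal staminodia. The first lay between the normal organs in all 3 mantled palms. The second was at the carpel level in mantled palm 3 and at or below the staminodia level in mantled palms 1 and 2. Their log2 fold changes against normal carpel were -1.72 (SE 1.04) and -1.22 (SE 1.16), each with an adjusted p of 1 in edgeR.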

How the data were processed

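Counts of RNA reads from staminodia and carpels cut out with a laser at stage 3 were used. Per the labels' protocols, DNase and a step against ribosomal RNA followed the extraction, before stranded libraries were made and sequenced as paired ends of differing length on HiSeq or MiSeq instruments; which library had which is not stated. The submitters' processing notes name HTSeq 0.6.1p1, TopHat2 2.0.13, CASAVA 1.8.2, cutadapt and Trim Galore. For the build, the annotation and whether reads were counted by strand, the answer is not given in the sources used here, and overlapping or antisense genes may share reads. The deposited values are whole-number counts for each feature, not normalised by the authors. In the 6 libraries compared, 46.9% to 50.5% of all reads listed fell in no feature, 11.1% to 14.3% were ambiguous and 6.79% to 16.7% aligned to several places. These rows were left out.

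Features ending in a part number were summed to their model, a reading of the ID form that no annotation was at hand to check. Normal carpel replicates 1 and 2, parts of 1 inflorescence, gave a chi-square over its degrees of freedom of 7.97, against 19.0 to 32.8 between palms. They differed by more than sampling noise and were summed. The test used edgeR 4.0.16 (R 4.3.3) on the 5 palm sums of the compared groups: filterByExpr with its minimum count of 10, TMM, robust dispersions and glmQLFTest after glmQLFit, with p-values adjusted by Benjamini-Hochberg over all models. Each SE is the absolute log2 value over the square root of the F statistic. The median prior degrees of freedom were 12.4, so p-values rest on 5 palms and on a spread shared among models. Levels use 1 scaling of all 10 palm by organ sums, and log2 levels a prior count of 2. Alternatives used DESeq2 1.42.0 and limma 3.58.1 among others.

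With fewer than 10 calls, named models were the 2 of smallest p per direction, and for the organ scale the 2 per direction whose smaller difference over the normal palms was largest. The other called models and the neighbours of the p5_sc00001 run were described after their values were seen, as was the count of large differences. The comparison, the members and the rules were chosen with earlier results of these data known. The test was tried on simulated data with known changes. It recovered 0% of 2-fold, 36% of 4-fold, 56% of 8-fold and 66% of 16-fold changes, with 5 false calls among 84. The simulated counts were drawn for each model on its own around a pooled profile, with no palm whose whole profile stood apart. Many changes of these sizes were thus missed even in that setting, and recovery in the real data was not tested.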

Additional observations from a re-analysis of the deposited data

How the results depend on the processing

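The count of 7 called models was 45 in DESeq2, 59 with limma voom, 78 with no filter (22 higher, 56 lower), 4 with a minimum mean of 10 CPM, 18 with each library as a replicate (3 higher, 15 lower), 2 with all 4 groups in 1 fit and 13 with normal palm 2 alone. It ran from 0 to 21 over leaving out each replicate in turn. With median-ratio size factors it was 7, and with deposited features not summed it was 8. The log2 fold changes of the 9 models described, 7 lower and 2 higher, kept their direction in each alternative that gave them an adjusted p. The share of models with mantled carpel nearer to mantled staminodia ran from 42% to 90.0% over leaving out each replicate, and was 84.6% with normal palm 2 alone. The share with normal staminodia nearer ran from 0% to 32% in the same way (18% without mantled replicate 3, 32% without normal replicate 2), and was 20.3% with limma voom, 20% with features not summed and 84.6% with normal palm 2 alone. The position of mantled staminodia ran from 0.377 to 0.543 over leaving out each replicate, and was 0.232 with a minimum mean of 30 CPM, 0.585 with a 4-fold limit and 0.295 over models called within palms. That of mantled carpel ran from 0.592 to 0.815 over leaving out each replicate, and was 0.476 with normal palm 2 alone, an alternative chosen after seeing the data. The distance difference was 0.102 and 0.046 with prior counts of 0.5 and 8, 0.035 with a minimum mean of 30 CPM and 0.135 with normal palm 2 alone, and ran from -0.003 to 0.092 over leaving out each replicate. The fewer samples or models in these settings apart, the cause was not tested. No paired analysis was possible because no palm is in both mantled staminodia and normal carpel. Depth limits models with few reads: the libraries had 2349579 to 4426220 counts each.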
